A study of Mus musculus with 6 samples.

Results

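Heat shock genes are described here through 10 genes taken by symbol from the deposited table: Hspa8, Hsp90aa1, Hsp90ab1, Hsph1, Dnaja1, Dnajb1, Dnajb4, Hspd1, Hspe1 and Hsf1. They are 10 of the 23281 genes in that table, and all 10 passed the minimum of 100 reads on average that the tests required. Most of them encode chaperones of the cytosol and nucleus or their regulator, whereas Hspd1 and Hspe1 encode the chaperonin of the mitochondrial matrix, so the set is wider than the cytosol.

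Nuclear RNA was measured by SLAM-seq, in which cells take up the uridine analogue 4-thiouridine (4sU) and labelled RNA is read from T-to-C (T>C) changes after alkylation. The cells were female, of a 129S X Cast background, and were grown in ES medium after feeder cells had been discarded by pre-plating. In all of them a TetOn promoter stood in place of the endogenous Xist promoter on the 129S allele and a Bgl stem-loop had been put into the 3' end of Xist. All sample titles also carried the term BglHalo, and its Halo part is not described further here. All groups received 1 µg/ml doxycycline for 17.5 to 20 h and 500 µM 4sU for 4 h with doxycycline. The 6 groups were 0 min, without washout, and 30, 60, 90, 120 and 150 min of washout in medium with 50 mM uridine and doxycycline. Each group was 1 library, so the spread between cultures is unknown. Columns of the table were tied to times by the number in their names, an inference on which every slope rests. A p-value measures only the scatter of 6 libraries around a line in time. For slopes of single genes, the scatter behind the SE and p-value is moderated, that is, drawn in part from all genes tested.

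Libraries held 18558073 to 28535162 reads. All 8 stem cell markers examined were present (Pou5f1 at 284 to 421 CPM and Nanog at 146 to 269.6 CPM, where CPM is the read count scaled to library size with TMM factors). The 12 feeder fibroblast markers summed to 2679 to 4117 CPM, of which Fn1 gave 2248 to 3572 CPM. Of the others S100a4 had 146 to 217 CPM, Col1a2 100.03 to 166 CPM and Col1a1 75.3 to 122 CPM, and the lowest were Lum at 0 to 0.18 CPM and Postn at 1.31 to 1.93 CPM. The part of feeder RNA in the results was not tested, and in these bulk samples fewer cells of a type and less RNA per cell cannot be told apart. Values in series are given throughout for 0, 30, 60, 90, 120 and 150 min. Over all genes together T>C conversion stood at 4.05%, 2.69%, 4.11%, 2.57%, 1.55% and 1.17%, so the 60 min library stood above the 30 min library.

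Chaperones of the HSP70 family bind unfolded stretches of other proteins and release them in a cycle driven by ATP. J-domain proteins (the Dnaj genes) deliver the client and trigger ATP hydrolysis, and nucleotide exchange factors reset the cycle. HSP90 takes over many clients, among them kinases and receptors, at a later step of folding. The transcription factor HSF1 is held inactive in unstressed cells and drives many of these genes after heat or other proteotoxic stress by binding heat shock elements, repeats of the unit GAA in alternating orientation.

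The labelled share is the authors' posterior mean for the part of a gene's reads that carried label, and the rate of label loss is the negative slope of its natural log on time. The 10 genes divided by how much label they took up and how much they lost. The J-domain genes Dnajb1 and Dnajb4 were the most labelled at 0 min and lost most of that label in the washout. Hsph1, Hspa8 and Dnaja1 were 44.3% to 56.9% labelled at 0 min and also fell. Hsf1, Hspd1, Hspe1, Hsp90ab1 and Hsp90aa1 were less labelled, and none of these 5 changed past the threshold. In all, 5 of the 10 genes fell and 0 rose (limma, Benjamini-Hochberg adjusted p under 0.05 over 11462 genes). Across all genes tested, 52.3% fell and 1.19% rose, so the share that fell among the 10 was close to the background. The median rate of label loss was 0.182 per h over the 10 genes and 0.247 per h over all genes tested.

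**Figure D1:**
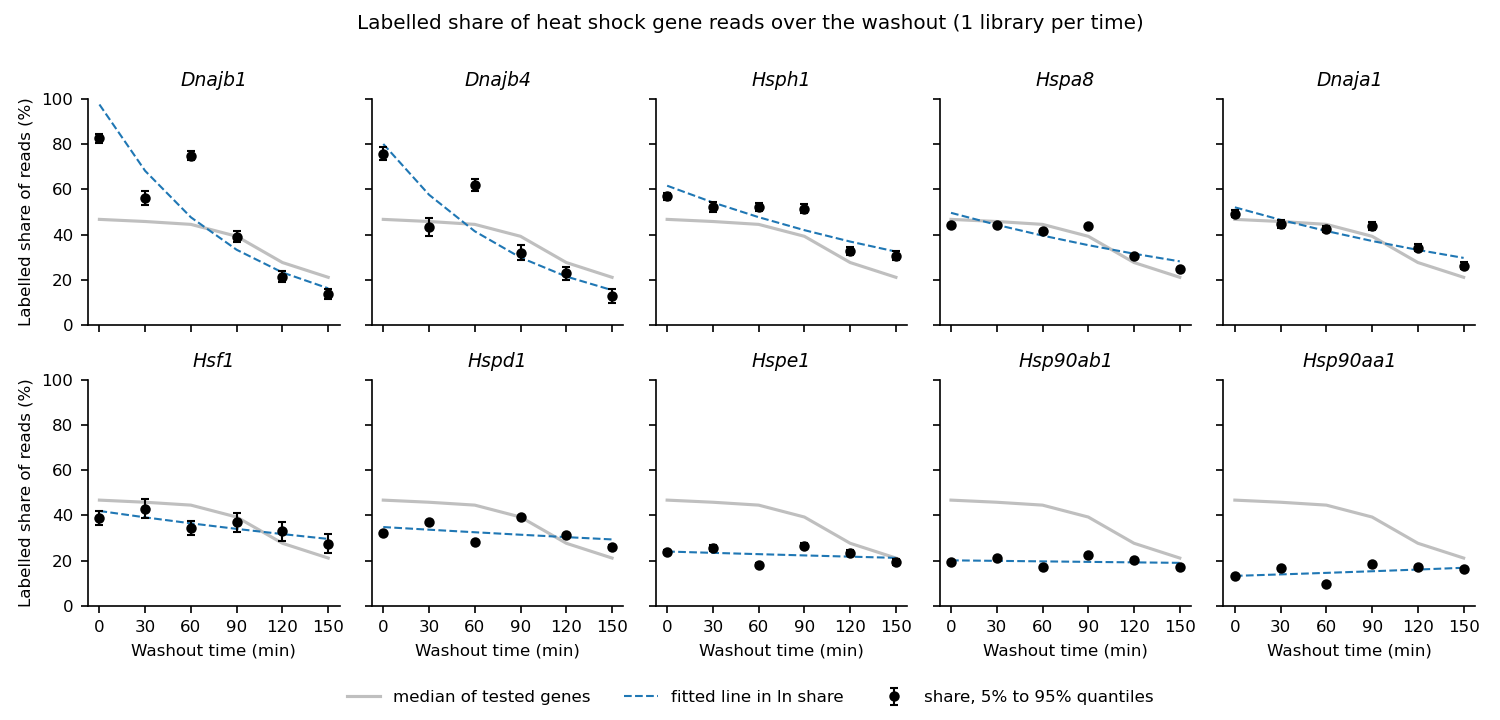
Labelled share of each gene's reads (%) against washout time (min). The 1 library per time is a point with the authors' 5% to 95% quantiles, dashed lines are the fit in ln share and grey lines the median of all tested genes; Dnajb1 starts at 82.7% and ends at 13.7%, with 60 min above 30 min, while Hsp90aa1 stays between 9.6% and 18.4%.

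Dnajb1, a class B J-domain co-chaperone of HSP70 that is strongly heat-inducible, lay on chromosome 8 (83608193 to 83612653 in mm10, plus strand). Its labelled share was 82.7%, 56.3%, 74.9%, 39.1%, 21.4% and 13.7%. The share was higher at 60 min than at 30 min and lowest in the last library. Dnajb1 lost label at 0.716 ± 0.110 per h (SE, 6 libraries; limma adjusted p = 9.2e-05), which is a half-life of 58.1 min (1 SE either way gives 50.3 and 68.6 min). The half-life was 51.0 to 67.9 min when any 1 library was left out, and the call held in all 14 alternatives. In rate of label loss Dnajb1 stood at rank 1162 of 11462 from the fastest.

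Dnajb4, a second class B J-domain protein, lay on chromosome 3 (152178511 to 152210302, minus strand). It was 75.8%, 43.5%, 62.0%, 31.9%, 22.8% and 12.8% labelled. This gene had the same order of libraries as Dnajb1, with 60 min second highest. Its rate was 0.658 ± 0.107 per h (SE, 6 libraries; limma adjusted p = 0.000134), a half-life of 63.2 min (54.4 to 75.6 min at 1 SE). The call also held in all 14 alternatives. Dnajb4 had 503 to 780 reads per library and Dnajb1 867 to 1709.

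Hspa8 encodes HSC70, the constitutive HSP70 of the cytosol and nucleus, on chromosome 9 (40800984 to 40810087, plus strand). Its labelled share was 44.3%, 44.4%, 41.8%, 44.0%, 30.6% and 24.8%. The first 4 libraries lay close together and the last 2 were lower. The median over all genes tested was 46.8%, 45.8%, 44.5%, 39.3%, 27.7% and 21.1% in time order. Hspa8 fell at 0.226 ± 0.092 per h (SE, 6 libraries; limma adjusted p = 0.0486), a half-life of 184 min (131 to 309 min at 1 SE).

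Hsph1, an HSP110-type protein that acts as a nucleotide exchange factor for HSP70, lay on chromosome 5 (149614287 to 149636376, minus strand). It was 56.9%, 52.1%, 52.2%, 51.5%, 32.8% and 30.7% labelled. As for Hspa8, the 120 and 150 min libraries were below the others. Hsph1 fell with a half-life of 162 min (120 to 253 min at 1 SE; limma adjusted p = 0.027).

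Dnaja1, a class A J-domain co-chaperone of HSP70, lay on chromosome 4 (40722150 to 40737149, plus strand). Its share was 49.3%, 44.8%, 42.5%, 43.9%, 34.2% and 26.3%. The half-life was 185 min (133 to 308 min at 1 SE; limma adjusted p = 0.0445). The calls for Hspa8, Hsph1 and Dnaja1 depended on which libraries were in the fit. Without the 0, 30, 120 or 150 min library, 2 of the 10 genes fell in place of 5, and none of these 3 was past the threshold. The share of all genes called in these refits is not given here, so the drop cannot be read as particular to the 10. Without the 30 min library the rates were 0.226 per h for Hspa8, 0.266 for Hsph1 and 0.233 for Dnaja1. In the full fit they were 0.226, 0.256 and 0.224 per h. The highest adjusted p among these refits, in each case without the 150 min library, was 0.387 for Hspa8, 0.186 for Hsph1 and 0.369 for Dnaja1. When 1 library was left out, the rate was 0.149 to 0.295 per h for Hspa8 (half-life 141 to 278 min), 0.223 to 0.304 per h for Hsph1 and 0.151 to 0.257 per h for Dnaja1. The lowest rate of each came without the 150 min library and the highest without the 0 min library.

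The HSP90 genes were the least labelled of the 10 at 0 min, while at 150 min Dnajb1 and Dnajb4 were below both. Hsp90ab1, the constitutive cytosolic HSP90, lay on chromosome 17 (45567775 to 45573271, minus strand) and was 19.2%, 21.3%, 17.2%, 22.7%, 20.4% and 17.2% labelled. Hsp90aa1, its stress-inducible counterpart, lay on chromosome 12 (110690605 to 110702728, minus strand). Its share was 13.4%, 16.9%, 9.6%, 18.4%, 17.2% and 16.3%. Both genes were highest at 90 min, and Hsp90aa1 was lowest at 60 min. The rates were 0.023 ± 0.090 per h for Hsp90ab1 (limma adjusted p = 0.856) and -0.096 ± 0.105 per h for Hsp90aa1 (limma adjusted p = 0.472), where a negative rate is a gain of labelled share. Between 0 and 150 min the share of Hsp90ab1 differed by -1.99 percentage points and that of Hsp90aa1 by 2.88 percentage points.

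Hspd1 (HSP60) and Hspe1 (HSP10), which form the barrel and the lid of the mitochondrial chaperonin, are neighbours on chromosome 1. Hspd1 (55077835 to 55088243, minus strand) and Hspe1 (55088132 to 55091307, plus strand) run in opposite directions and their gene models overlap by 112 nt. Hspd1 was 32.1%, 36.9%, 28.2%, 39.2%, 31.3% and 26.1% labelled. Hspe1 was 23.7%, 25.4%, 18.3%, 26.5%, 23.5% and 19.4% labelled. Both were highest at 90 min, and no slope was detected for Hspd1 (0.068 ± 0.093 per h, limma adjusted p = 0.57) or Hspe1 (0.050 ± 0.093 per h, limma adjusted p = 0.689).

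Hsf1, the transcription factor of the heat shock response, lay on chromosome 15 (76477422 to 76501913, plus strand) and had 464 to 641 reads per library. Its share was 38.8%, 42.9%, 34.4%, 36.9%, 32.9% and 27.5%. The 30 min library was the highest and the 150 min library the lowest. The rate of 0.139 ± 0.088 per h did not pass (limma adjusted p = 0.198), with an SE drawn in part from all genes. The ln share of Hsf1 followed time about as closely as that of Hspa8 (Pearson r of -0.856 and -0.857), at a lower rate. In the order of rates, the intervals of 1 SE separated Dnajb4 from Hsph1, and every other pair of neighbours in that order overlapped.

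The raw T>C rate, conversions over covered T positions, gave faster loss for each of the 10 genes. The median over all genes tested was also faster, at 0.512 per h by T>C rate and 0.247 per h by share. Over the 10 genes the median by T>C rate was 0.432 per h. Dnajb1 had 8.84%, 3.67%, 8.71%, 2.63%, 1.16% and 0.64% T>C (half-life 40.9 min, limma adjusted p = 0.000217). Hspa8 had 4.86%, 3.25%, 5.32%, 3.36%, 1.74% and 1.29%, for 81.1 min (limma adjusted p = 0.012). All 10 genes were lowest at 150 min on this measure, as was T>C conversion over all genes together (1.17%). By T>C rate 6 of the 10 fell and 0 rose, with 66.9% of 11459 genes falling and 0% rising. The sixth was Hsf1, with a half-life in T>C of 102 min (limma adjusted p = 0.0315). Hsp90aa1 had 1.49% at 0 min and 0.90% at 150 min and missed the threshold (limma adjusted p = 0.354). Its sign turned on this measure, with a rate of 0.161 per h.

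**Figure D2:**
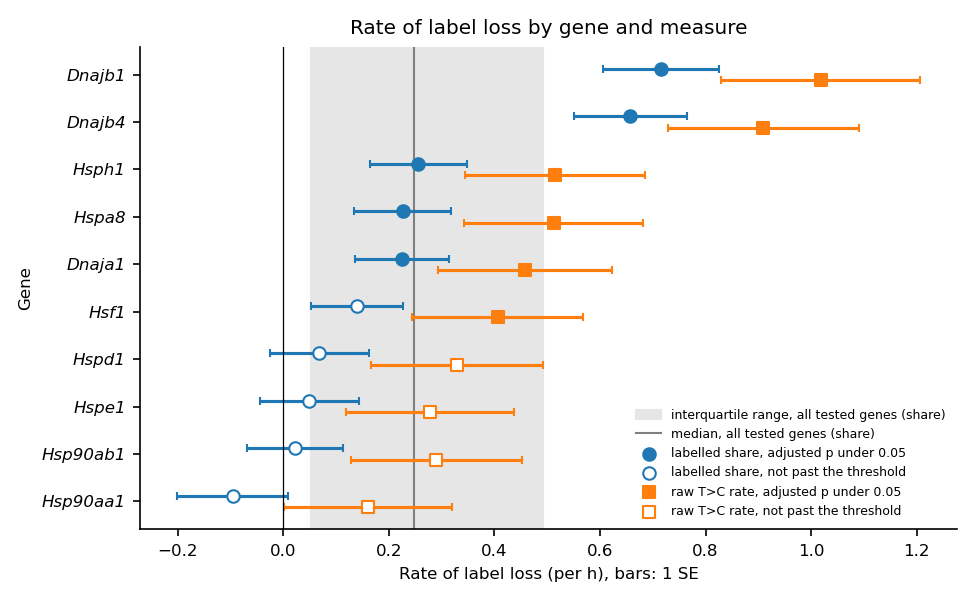
Rate of label loss (per h) by gene, from the labelled share (circles) and from the raw T>C rate (squares), with 1 SE; filled symbols passed an adjusted p of 0.05, and the grey band and line are the interquartile range and median of all tested genes for the share. Dnajb1 and Dnajb4 lie to the right of the band, and Hsp90aa1 lies below 0 on the share and above 0 on the T>C rate.

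The place of the 60 min library differed between genes and between measures. The labelled share was higher at 60 than at 30 min for 3 of the 10 genes, Dnajb1, Dnajb4 and, by a small margin, Hsph1, against 47.1% of all genes tested. The T>C rate was higher at 60 than at 30 min for 9 of the 10, all but Hsp90aa1, against 94.2% of all genes. At 90 min all 10 genes lay above their own fitted line and at 150 min 0 did. A straight line in ln share is therefore a rough summary of these courses. The share of all genes above their own lines is not given here, so these counts cannot be read as particular to the 10.

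Partner genes were compared directly, in 6 pairs chosen by protein function with earlier results of these data known. The ratio of labelled shares, Dnajb1 over Hspa8, took the values 1.87, 1.27, 1.79, 0.889, 0.701 and 0.552. Dnajb1 was thus the more labelled gene in the first 3 libraries and the less labelled in the last 3. Its rate exceeded that of Hspa8 by 0.490 per h (95% interval 0.189 to 0.791 from the least-squares line). The exact two-sided permutation p over the 720 orders of times was 0.0194, which did not pass after adjustment over the 6 pairs (adjusted p = 0.117). The smallest p this design allows is 0.00278. With the 30 and 60 min times exchanged the exact permutation adjusted p was 0.0167.

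None of the other 5 pairs differed past the threshold. Dnaja1 and Hspa8 differed by -0.0020 per h (95% interval -0.077 to 0.073; exact permutation adjusted p = 0.933), and the ratio of their shares was 0.998 to 1.12. Hsph1 and Hspa8 differed by 0.030 per h (-0.057 to 0.116; exact permutation adjusted p = 0.6), and the Hsph1 share was the higher in all 6 libraries. Dnajb4 and Dnajb1 differed by -0.059 per h (-0.211 to 0.094; exact permutation adjusted p = 0.6).

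For Hspd1 minus Hspe1 the difference was 0.019 per h (-0.067 to 0.105; exact permutation adjusted p = 0.673), with Hspd1 more labelled in all 6 libraries by ratios of 1.33 to 1.55. For Hsp90aa1 minus Hsp90ab1 it was -0.118 per h (-0.332 to 0.095; exact permutation adjusted p = 0.6). Hsp90aa1 was the less labelled of the 2 in all 6 libraries, by a ratio of 0.559 at 60 min and 0.946 at 150 min. These intervals leave room for differences of the sizes given, so the pairs are not shown to be alike.

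**Figure D3:**
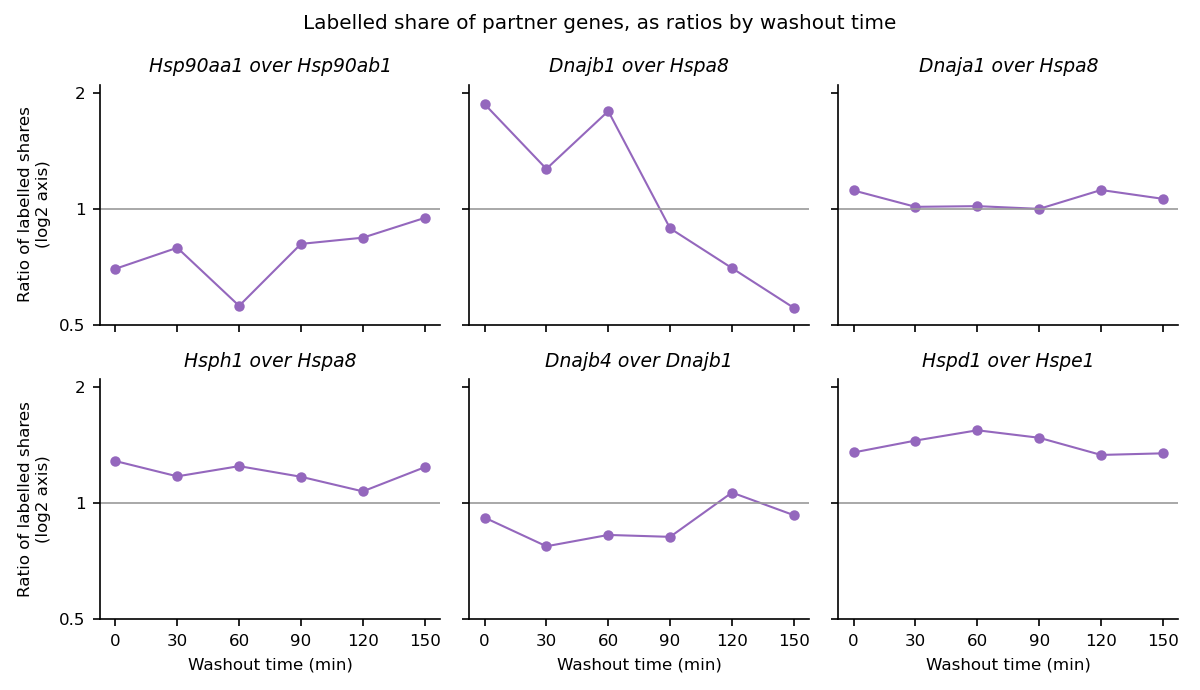
Ratio of the labelled shares of 2 partner genes (log2 axis) against washout time (min), 1 library per time, with the grey line at equal shares. Dnajb1 over Hspa8 crosses from 1.87 at 0 min to 0.552 at 150 min, while Dnaja1 over Hspa8 lies between 0.998 and 1.12.

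Promoter windows were examined for heat shock elements because several of these genes are classical HSF1 targets. RefSeq windows (GRCm38.p6, 250 bases before to 50 after a start) were held for 6 of the 10 genes, Dnaja1, Dnajb1, Dnajb4, Hspd1, Hspe1 and Hsph1, in 12 windows. The motifs searched were GAANNTTC and TTCNNGAA, each of which reads the same on both strands and which can overlap. At least 1 window held a match for 5 of the 6 genes, all but Dnajb1. Counted by window, 6 of the 12 held one, against 15.1% of all 32851 windows, and these 6 are not separate, since Hspd1 and Hspe1 share an element and the windows of Hsph1 overlap. Runs of 3 units were in 4 of the 12 windows, those of Hspd1, Hspe1 and Hsph1, against 0.603% of all windows. A match is a description of these letters. Binding was not measured, and a link between matches and label loss was not tested.

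The sequences show the run of units at Hspe1 and Hsph1, and the single match at Dnajb4. Capitals mark the matched letters, and each is written 5' to 3' on the gene's own strand.
Hspe1 (chr1:55087898-55088197, plus strand): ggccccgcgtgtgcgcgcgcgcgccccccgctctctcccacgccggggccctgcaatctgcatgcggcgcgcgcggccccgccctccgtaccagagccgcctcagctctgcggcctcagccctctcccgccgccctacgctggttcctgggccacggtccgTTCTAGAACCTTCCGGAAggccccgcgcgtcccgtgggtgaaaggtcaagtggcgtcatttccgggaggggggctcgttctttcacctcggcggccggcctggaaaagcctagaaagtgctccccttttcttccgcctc
Hsph1 (chr5:149636287-149636586, minus strand): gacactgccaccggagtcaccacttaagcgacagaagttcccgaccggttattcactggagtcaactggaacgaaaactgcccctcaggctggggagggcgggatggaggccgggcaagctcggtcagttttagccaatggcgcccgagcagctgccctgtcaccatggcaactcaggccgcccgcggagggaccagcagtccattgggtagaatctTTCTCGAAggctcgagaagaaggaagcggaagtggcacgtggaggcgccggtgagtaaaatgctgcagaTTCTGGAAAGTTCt
Dnajb4 (chr3:152193796-152194095, minus strand): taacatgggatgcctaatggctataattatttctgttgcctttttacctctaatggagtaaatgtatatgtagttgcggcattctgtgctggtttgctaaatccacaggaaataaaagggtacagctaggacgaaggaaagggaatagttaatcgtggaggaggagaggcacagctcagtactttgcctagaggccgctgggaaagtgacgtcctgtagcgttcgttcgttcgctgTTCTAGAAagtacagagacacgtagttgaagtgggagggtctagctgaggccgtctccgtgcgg

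The run upstream of Hspe1 is the same 18 bases (chr1:55088059-55088076) that a window of Hspd1 holds on the other strand, where it reads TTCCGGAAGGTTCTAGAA. These windows of the 2 chaperonin genes share 285 bases. By GENCODE M21 the element lies within the span of Hspd1, touching an annotated exon, and outside the span of Hspe1. The match in Dnaja1 reads GAAAATTC (chr4:40722344-40722351). The Dnajb4 match lies within the gene span and touches no annotated exon, in a window that belongs to an internal start. Both Hsph1 matches touch an annotated Hsph1 exon.

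The uptake of label before the washout ranked the genes in nearly the same way. From the share at 0 min, and taking the RNA as at steady state during 4 h of labelling, the half-life would be 94.9 min for Dnajb1 (88.6 to 102 from the posterior quantiles), 117 min for Dnajb4, 197 min for Hsph1, 245 min for Dnaja1 and 285 min for Hspa8. It would be 339 min for Hsf1, 430 min for Hspd1, 615 min for Hspe1, 781 min for Hsp90ab1 and 1157 min for Hsp90aa1. For the 5 genes that fell, each value was longer than the one from the washout. The call limited this comparison, as no gene called as falling had a washout half-life above 196.9 min. Among the genes not called, Hsf1 also had the shorter value from the washout (298 min), but its range at 1 SE, 183 to 804 min, held the uptake value. The washout values of Hspd1 (609 min), Hspe1 (840 min) and Hsp90ab1 (1833 min) were the longer ones, and Hsp90aa1, with a negative rate, had none. The rates of Hspd1, Hspe1 and Hsp90ab1 were smaller than their SE. Their washout half-lives thus have no upper bound at 1 SE, and their order against the uptake values is not determined. In labelled share at 0 min, 10.98% of all genes tested were at or above Dnajb1 and 94.3% were at or above Hsp90aa1. Both estimates use the 0 min library and are not independent. Nuclear RNA leaves the pool by decay or by export, which cannot be told apart.

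**Figure D4:**
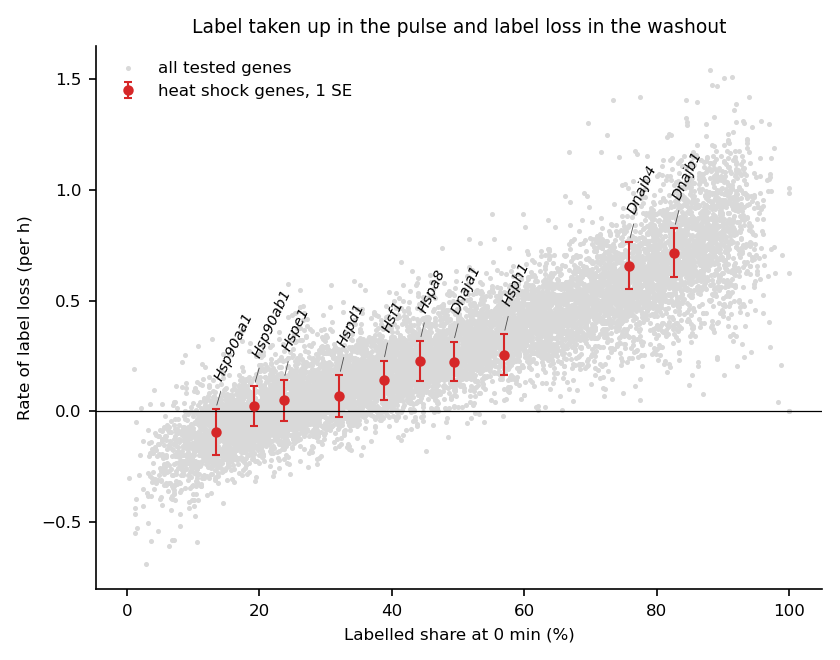
Rate of label loss in the washout (per h, 1 SE for the 10 heat shock genes) against the labelled share at 0 min (%), with all 11462 tested genes as grey points and the 0 min library in both axes. The 10 genes run from Hsp90aa1 at 13.4% to Dnajb1 at 82.7%, within the cloud of other genes.

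Total reads were followed because a half-life from a share takes levels as constant. By edgeR's quasi-likelihood test 0 of the 10 genes passed over 15743 genes, where 0% of all genes fell and 0% rose. At an unadjusted p under 0.05 there were 2 of the 10, Dnaja1 and Hsph1, and 3416 of all genes (21.7%). DESeq2 called 0 of the 10 as well, with 2.24% of genes falling and 1.99% rising. Dnaja1 had 108, 118, 105, 122, 134 and 140.4 CPM over the times, with a slope of 0.15 ± 0.063 log2 per h (edgeR adjusted p = 0.191). With the 30 and 60 min times exchanged Dnaja1 was called (edgeR adjusted p = 0.0362), when 18.3% of all genes were. Hsph1 had 92.8, 94.5, 83.7, 99.99, 109 and 116 CPM, with a slope of 0.14 ± 0.065 log2 per h (edgeR adjusted p = 0.225). In both genes the 60 min library was the lowest and the 150 min library the highest.

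For Dnajb1 the totals were 50.5, 53.2, 65.3, 55.7, 46.9 and 47.2 CPM in time order, with the 60 min library highest (slope -0.076 ± 0.080 log2 per h, edgeR adjusted p = 0.591). Leaving out the 0 min library gave a slope of -0.18, and leaving out the 150 min library one of -0.026. The labelled part of these, share times CPM, was 41.8 CPM at 0 min and 6.46 CPM at 150 min. Labelled reads of Hspa8 were 913 CPM at 0 min and 506 CPM at 150 min, while its total was 1910 to 2182 CPM. On labelled reads in place of the share, 2 of the 10 genes fell, against 47.5% of all genes. Those were Dnajb1 and Dnajb4, while Hspa8 (limma adjusted p = 0.0596), Hsph1 (0.156) and Dnaja1 (0.283) missed the threshold.

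**Figure D5:**
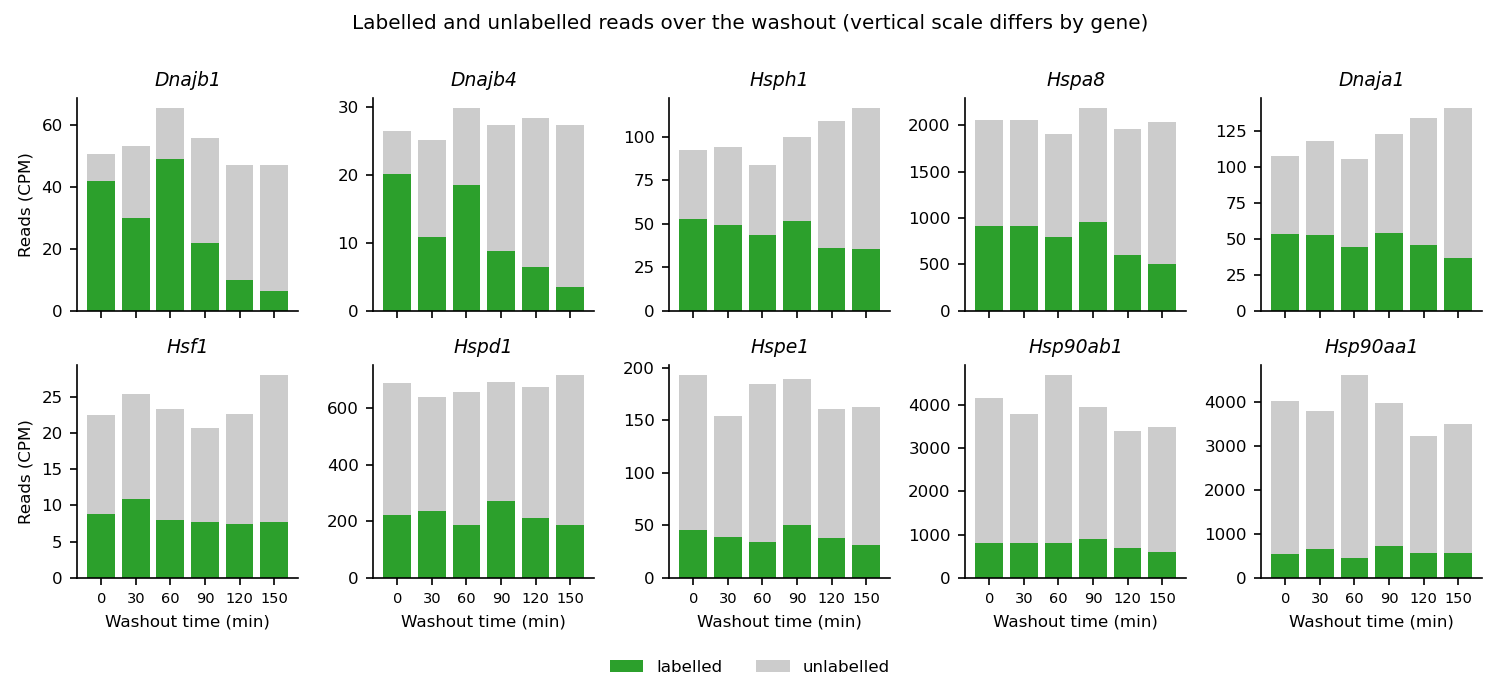
Labelled (green) and unlabelled (grey) reads of each gene in CPM against washout time (min), stacked to the total, on a vertical scale that differs by gene. Labelled Dnajb1 reads are 41.8 CPM at 0 min and 6.46 CPM at 150 min, and the totals of Dnaja1 and Hsph1 are highest at 150 min.

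Levels differed widely between the genes. In TPM, computed here per length of the deposited gene model, the mean over the 6 libraries was 4158 TPM for Hsp90ab1, 3134 TPM for Hsp90aa1, 1728 TPM for Hspa8, 750.3 TPM for Hspd1 and 483 TPM for Hspe1. It was 57.9 TPM for Dnaja1, 56.1 TPM for Hsph1, 47.4 TPM for Dnajb1, 31.7 TPM for Hsf1 and 14.97 TPM for Dnajb4. The ranges over libraries of Dnaja1 (47.1 to 69.0 TPM), Hsph1 (44.3 to 67.5 TPM) and Dnajb1 (42.8 to 55.0 TPM) overlapped. Reads of Hsp90aa1 and Hsp90ab1 were nearly equal, with ratios of 0.946 to 1.00 in the 6 libraries. The 10 genes together took 0.959% to 1.24% of each library's reads.

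Some of these genes have near-identical copies. Of the 81-nt windows of the longest coding transcript, the read length of the study, 66.6% in Hspa8 also occurred in transcripts of 9 other genes, most of them in Gm15459. The share was 51.9% for Hsp90aa1, 31.8% for Hspd1, 22.6% for Hspe1, 16.1% for Dnaja1 and 0.246% for Hsp90ab1. It was 0% for Hsph1, Dnajb1, Dnajb4 and Hsf1. Hsp90aa1 and Hsp90ab1 shared no window with each other. The counting of reads that match several places (not given in the sources used here) matters for them, and values of Hspa8 and Hsp90aa1 carry that uncertainty. The snoRNA genes Snord14c, Snord14d and Snord14e lie within Hspa8, and Dnaja1 overlaps Smu1 and Gm6297 on the opposite strand.

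Other chaperone genes were read from 5 lists with 71 genes in the table, of which 54 were tested for label loss. Among these 14 fell and 1 rose, where 52.3% of all genes tested fell and 1.19% rose, and the median rate of all genes was 0.247 per h. The lists below are to be read against those values. Of 15 tested further HSP70 and J-domain genes 5 fell and 0 rose, with a median rate of 0.148 per h. Among the 5 that fell, the shortest half-lives were those of Dnajb5 (76.1 min) and Hspa2 (76.5 min). The longest of these 5 were those of Hspa13 (91.4 min) and Dnaja2 (165 min). Some genes not called gave longer values, such as Hspa14 (502 min). The rate of Hspa14 was smaller than its SE (0.083 ± 0.095 per h, limma adjusted p = 0.491), so that value is not determined. The inducible HSP70 genes Hspa1a and Hspa1b had means of 48.2 and 92.8 reads, below the minimum, and were not tested. The constitutive HSP110 gene Hspa4 was 26.0% labelled at 0 min and 26.5% at 150 min (limma adjusted p = 0.866).

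Of 22 tested co-chaperones and exchange factors 4 fell and 0 rose (52.3% and 1.19% of all genes), with a median rate of 0.099 per h against 0.247 per h for all genes. Those were Bag5 (42.0 min; 91.1% labelled at 0 min and 7.48% at 150 min), Cdc37l1 (67.7 min), Bag4 (106 min) and the stress-inducible exchange factor Bag3 (110.1 min). The HSP70-HSP90 organising protein gene Stip1 had 17.3% at 0 min and 23.5% at 150 min (limma adjusted p = 0.248). Of 3 tested small heat shock genes Hspb8 fell (123 min), and of 4 tested HSF-related genes Hsf2 fell (61.4 min; 81.9% labelled at 0 min and 15.1% at 150 min). Hsf2 encodes the HSF1 paralogue that also acts in development. The slope of Hsf1 did not pass, and the difference between Hsf2 and Hsf1 was not tested.

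Of 10 chaperone genes of the endoplasmic reticulum and mitochondria 3 fell and 1 rose, with a median rate of 0.186 per h. Dnajb9 (52.7 min), Grpel2 (54.8 min) and Grpel1 (143 min) fell. Hsp90b1, the HSP90 of the endoplasmic reticulum, rose, with 10.5% labelled at 0 min and 21.0% at 150 min (limma adjusted p = 0.0495). The call was lost without the 0, 90, 120 or 150 min library (limma adjusted p of 0.0751 to 0.161) and held in 5 of 14 alternatives. By T>C rate the slope of Hsp90b1 did not pass (rate -0.014 per h, limma adjusted p = 0.934).

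Genes whose course was most like that of Dnajb1 were sought among 7539 others averaging 500 reads or more, by the root mean square difference in ln share over the 6 libraries. They were Zfp955b (0.027), Traf6 (0.028) and Edrf1 (0.030). For Hspa8 they were Lman2 (0.028), Umps (0.030) and Pcyox1 (0.032). Lman2 was 45.6% labelled at 0 min and 25.3% at 150 min, beside 44.3% and 24.8% for Hspa8.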

How the data were processed

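Nuclear RNA of 6 cultures, 1 per washout time, was analysed from 1 deposited table. The submitters' processing notes name STAR 2.5.2b and mm10. Not given in the sources used here are the program behind the table, its annotation and its use of strand. According to the column names, the authors deposited unnormalized read counts by gene, a labelled fraction with its posterior mean, mode and 5% and 95% quantiles, and T>C conversions with their coverage, the last pair rounded to 4 significant digits. Column names carry a number or none, read as the washout time without the ending shared by the sample titles. Every slope rests on that reading.

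Time in hours entered each fit as a number, with 4 residual degrees of freedom before moderation. The empirical Bayes step of limma then moderated the SE and p-value of each share slope with the variance of all genes tested. The rate of label loss is the negative slope of ln share, tested with limma 3.58.1 over genes averaging 100 reads or more whose share was above 0 throughout, and half-life is ln 2 over it. Counts were tested with edgeR 4.0.16 (TMM, filterByExpr) and DESeq2 1.42.0. Benjamini-Hochberg adjusted p under 0.05 was the threshold. Pairs were tested by exact permutation of the times. The fits were tested on simulated data. Positions are from GENCODE M21. The genes, lists and pairs were chosen with earlier results of these data known. All 10 heat shock genes are named. From each other list the called genes with the 2 shortest and the 2 longest half-lives are named. Hspa1a, Hspa1b, Hspa4, Hspa14, Stip1 and Hsp90b1 were added after their values were seen. The 14 alternatives to the share fit are given in the closing section.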

Additional observations from a re-analysis of the deposited data

How the results depend on the processing

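The count of heat shock genes that lost label was 5, and 2 on labelled abundance, without a read minimum and without both the 30 and 60 min libraries. It was between 2 and 5 when 1 library was left out, 6 by T>C rate and 4 by posterior mode. The count stayed at 5 on the logit scale (the log of labelled over unlabelled share) and with a read minimum of 300. With the 30 and 60 min times exchanged it was also 5. Of all genes tested, 52.3% fell in the main fit, 47.5% on labelled abundance, 66.9% by T>C rate and 54.5% with these times exchanged. For the other settings named that share is not given here, so the counts cannot be read as particular to these genes. Dnajb1 and Dnajb4 fell under all 14 alternatives. The rate of Hsp90aa1 was 0.161 per h by T>C rate, and that of Hsp90ab1 was -0.0021 per h with the 30 and 60 min times exchanged. Without the 150 min library the rates were -0.038 per h for Hsp90ab1, -0.0019 for Hspd1 and -0.0045 for Hspe1; none of these was past the threshold in either direction. When 1 library was left out, the highest rates of these 3 genes were 0.051, 0.118 and 0.068 per h. The cause was not tested.

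With the 30 and 60 min times exchanged, 1 of the 10 genes had a slope in total reads, when 18.3% of all genes did. With the same exchange 1 of the 6 pairs differed, and in the main fits there were 0 of each. The total read slope of Hspa8 was 0.0061 log2 per h with these times exchanged and -0.014 to 0.0087 when 1 library was left out (0.0077 without the 30 min library). For Hsf1 it was -0.055 to 0.097, and the difference between Dnaja1 and Hspa8 in rate was -0.038 to 0.012 per h (0.0073, 0.00043 and 0.0013 without the 30, 60 and 150 min libraries). Among the other chaperone lists 31 genes fell by T>C rate in place of 14 (66.9% of all genes in place of 52.3%), and 10 to 18 when 1 library was left out. The share of all genes in the refits without 1 library is not given here, so those counts cannot be read as particular to the lists. Promoter matches were found for 5 genes, or 3 when only runs of 3 units counted, an alternative chosen after seeing the data, as were the alternatives for the other chaperone lists and Hsp90b1. Hsf1 and Dnajb4 had the fewest reads, 464 to 780 per library. No paired analysis was possible because no washout time was sampled more than once.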
